A study of Mus musculus with 10 samples.

Results

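The 9 genes described here encode the core scaffold proteins of the postsynaptic density: Shank1, Shank2 and Shank3, the membrane-associated guanylate kinases Dlg2, Dlg3 and Dlg4, and the guanylate kinase-associated proteins Dlgap1, Dlgap2 and Dlgap3. They were chosen by symbol, for what their proteins are known to do, although earlier results of these data were known. They were 9 of the 24421 genes listed in the ventral hippocampus (vHpc), and all 9 passed the filter that left 15081 genes for testing. RNA-seq was done on 10 libraries of C57BL/6 female mice, and all 4 groups had been ovariectomized (OVX) at 70 to 80 days of age. WT mice carried 2 Val copies of BDNF, and Het-Met mice were heterozygous for a knock-in of the Met allele, which gene-level values do not show. After 2 weeks of recovery the mice drank water with 300 nM estradiol (E2), about 0.7 µg per day, or vehicle for 6 weeks, and both solutions held 0.1% ethanol. The groups were vehicle-treated OVX WT (2 libraries, replicates 1 and 3), E2-treated OVX WT (2, replicates 1 and 2), vehicle-treated OVX Het-Met (3) and E2-treated OVX Het-Met (3), and a library stands for a pool of RNA from 2 mice.

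The postsynaptic density is the protein layer beneath the membrane of excitatory synapses. Dlg proteins sit closest to the membrane and hold glutamate receptors and adhesion molecules through their PDZ domains, Dlgap proteins bind the guanylate kinase domain of the Dlg proteins, and Shank proteins bind Dlgap proteins below them and link the layer to Homer and to the actin cytoskeleton. In the hippocampus this chain lies in the dendritic spines of pyramidal and granule neurons. The spine density of some pyramidal neurons is known to vary with estradiol.

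The reads counted on genes numbered 19820184 to 23267410 in a library, and values are CPM, reads per 1000000 such reads. The members rested on 768 to 23764 reads in a library, so that counting error was between 0.649% and 3.61% of a value. Markers of hippocampal pyramidal neurons were present in every library, with a summed level of 7106 to 8694 CPM over 10 genes, of which Camk2a and Slc17a7 were the highest. Markers of striatal medium spiny neurons, cells that also hold Dlgap3 and Shank3, summed to 187 to 222 CPM over 10 genes, with Drd1 at 5.53 to 11.0 CPM and Drd2 at 1.98 to 3.05 CPM. Choroid plexus markers varied most, and none of the 12 was at 0 in all libraries. Their summed level was 149.9 to 1083 CPM in vehicle-treated WT, 1908 to 2509 CPM in E2-treated WT, 1470 to 3273 CPM in vehicle-treated Het-Met and 261 to 1554 CPM in E2-treated Het-Met libraries. The highest, 3273 CPM, belonged to replicate 1 of vehicle-treated Het-Met mice. In that library 7 of the 9 members also had their lowest value, whereas 14.1% of all tested genes did, and the genotype values and counts below are given again without it. In these bulk samples fewer cells of a type and less RNA per cell cannot be told apart.

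All 9 genes lie on the + strand of mm10, none on chromosome 2 with Bdnf. Exons of Shank1 and Shank3 share 3.22% and 2.95% of their bases with a gene on the opposite strand, whose reads cannot be told apart here because the strand setting of the counting is not given in the sources used here, and the share was at most 1.38% for the other members. Levels of different genes were compared per kilobase of annotated exon, since a longer transcript yields more reads. Dlg4, whose product PSD-95 is an abundant scaffold of excitatory synapses, was highest at 75.8 ± 3.55 CPM per kilobase (SD, n = 10 libraries), followed by Dlgap3 at 71.6 ± 3.57 and Shank1 at 61.6 ± 8.71 CPM per kilobase. Dlg3 stood at 45.4 ± 1.77, Dlgap1 at 40.2 ± 1.63, Shank3 at 31.3 ± 3.10 and Dlg2 at 27.99 ± 2.56 CPM per kilobase. Shank2 at 17.0 ± 2.28 and Dlgap2 at 8.52 ± 1.23 CPM per kilobase were the lowest members. The ranges over the 10 libraries did not overlap between Dlgap1 and Shank3, between Dlg2 and Shank2, or between Shank2 and Dlgap2. The ranges of the other 5 neighbouring pairs in this order overlapped. Within each library taken alone the same order held, except for Shank3 and Dlg2 in replicate 3 of E2-treated Het-Met mice (27.30 and 27.31 CPM per kilobase). Among all tested genes the members ranged from percentile 63.5 for Dlgap2 to percentile 97.04 for Dlg4. The order depends on the length used for each gene, because several members have many transcripts: per length of the longest transcript alone Dlg4 stayed highest at 159 CPM per kilobase, but Dlgap1 moved to 100.3 and Dlg2 to 58.3 CPM per kilobase.

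**Figure D1:**
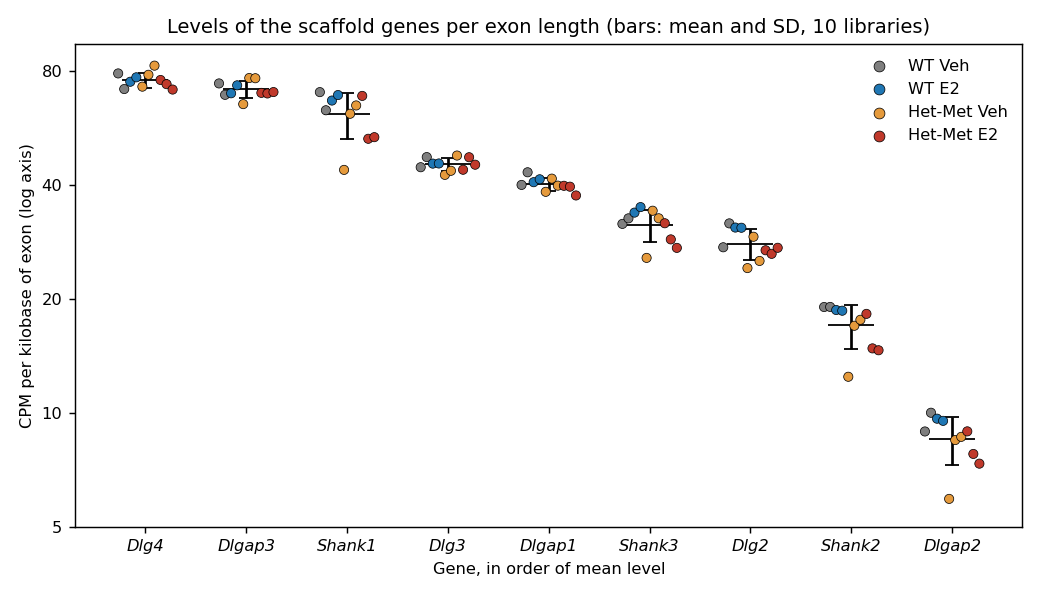
Level of each scaffold gene in CPM per kilobase of exon (log axis), with 1 point per library coloured by group and bars for the mean and SD over the 10 libraries. Dlg4, Dlgap3 and Shank1 lie at the top with overlapping points, Dlgap2 lies alone at the bottom at a mean of 8.52, and for Shank1, Shank2 and Dlgap2 a vehicle-treated Het-Met library sits well below the rest.

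The first question was whether E2 add-back altered scaffold transcripts in either genotype. No member was called in WT or in Het-Met mice by limma (Benjamini-Hochberg adjusted p-value under 0.05 and fold change above 1.3), where 0.0133% and 0% of all genes were called, and no member reached an unadjusted p-value of 0.05, where 4.04% and 5.45% of all genes did. Among the Dlg genes, Dlg4 (chromosome 11, 70016942 to 70047522) was 1046 and 951 CPM in vehicle-treated WT, 994 and 1021 CPM in E2-treated WT, 965, 1037 and 1097 CPM in vehicle-treated Het-Met and 1005, 979.7 and 948 CPM in E2-treated Het-Met libraries. The 4 groups overlapped, and the log2 fold change with E2 was 0.01 in WT and -0.08 (SE 0.07) in Het-Met mice. Dlg3 (chromosome X, 100767722 to 100818410), which encodes another synaptic guanylate kinase of the family, was the steadiest member, with a highest value only 1.12 times the lowest. Its libraries read 261 and 277 CPM in vehicle-treated WT, 266 and 267 CPM in E2-treated WT, 249, 255 and 279.8 CPM in vehicle-treated Het-Met and 257, 277 and 265 CPM in E2-treated Het-Met mice. Averaged over both genotypes 0 members were called (0.00663% of all genes) and 0 reached an unadjusted p-value of 0.05 (3.22%), and the log2 fold change of Dlg3 with E2 was 0.01 (95% interval -0.10 to 0.11).

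Among the Dlgap genes, Dlgap3 (chromosome 4, 127169204 to 127237022) read 336 and 313 CPM in vehicle-treated WT, 316 and 332 CPM in E2-treated WT, 296, 347 and 347 CPM in vehicle-treated Het-Met and 317, 316 and 319 CPM in E2-treated Het-Met libraries. Its values overlapped in all comparisons, with log2 fold changes with E2 of -0.0014 in WT and -0.05 in Het-Met mice. Dlgap1 (chromosome 17, 69969073 to 70821413), the longest member at 17890 bases of exon, read 716 and 774 CPM in vehicle-treated WT, 728 and 741 CPM in E2-treated WT, 687, 744 and 713 CPM in vehicle-treated Het-Met and 713, 709 and 672 CPM in E2-treated Het-Met libraries. Neither genotype separated by treatment for Dlgap1, and the log2 fold changes with E2 were -0.02 and -0.03.

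The members that stood farthest from 0 with E2 were Shank3 in WT and Dlg4 and Dlgap2 in Het-Met mice. Shank3 (chromosome 15, 89499623 to 89560261), the scaffold whose loss is known from Phelan-McDermid syndrome, was 290.3 and 300.2 CPM in vehicle-treated WT and 311 and 322 CPM in E2-treated WT libraries. The E2 values lay above both vehicle values, as they did for 15.6% of all genes, and the log2 fold change was 0.10 (SE 0.11, limma unadjusted p = 0.389). In Het-Met mice Shank3 was 236, 314 and 300.3 CPM under vehicle and 291, 264 and 251 CPM under E2, and these overlapped, with a log2 fold change of -0.07 (SE 0.09). Shank2 was the only other member whose WT libraries did not overlap, and it was lower with E2, as 16.2% of all genes were. No member separated by treatment in Het-Met mice, where 5.15% of all genes were higher and 5.11% lower in all E2 libraries. The 95% intervals of the E2 effect ran from -0.32 to 0.36 on the log2 scale in WT and from -0.26 to 0.33 in Het-Met mice over the 9 members, and each interval lay within a 1.3-fold change in either direction. The vehicle libraries are shared between the E2 and the genotype comparisons, which are therefore not independent. Leaving out replicate 1 of vehicle-treated Het-Met mice moved the members' median log2 change with E2 in Het-Met mice from 0.03 to -0.13, with Shank3 at -0.20 and Dlgap3 at -0.13 then under an unadjusted p-value of 0.05 and 0 members called (smallest adjusted p = 0.746 by limma).

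**Figure D2:**
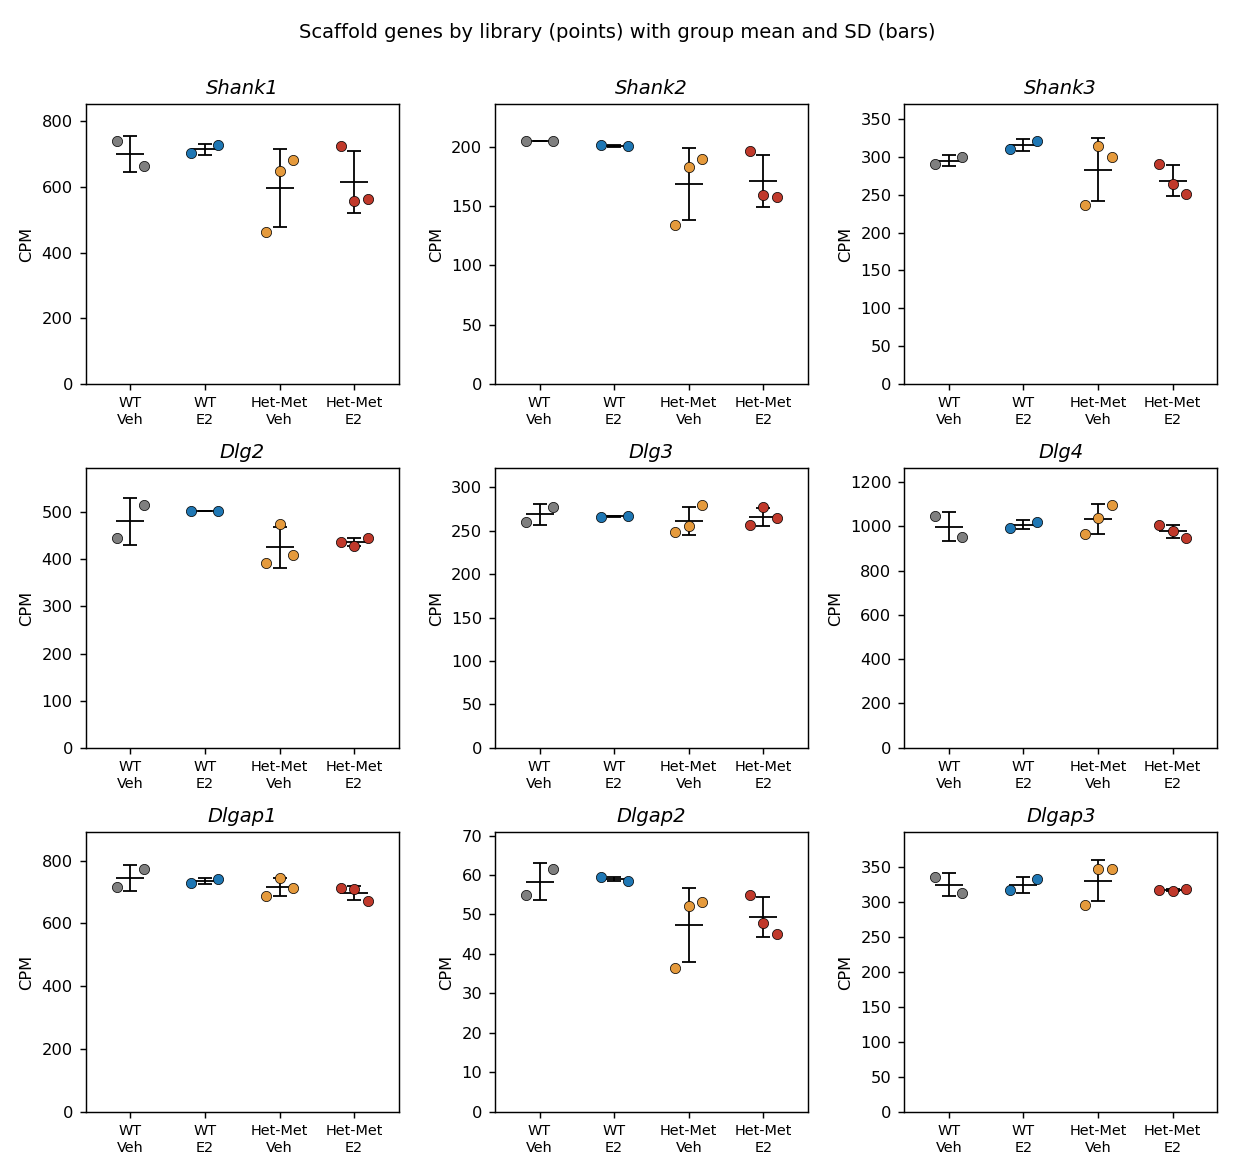
CPM of each scaffold gene (linear axes from 0), with 1 point per library in the 4 groups and bars for the group mean and SD. The lowest points of Shank1, Shank2, Shank3 and Dlgap2, at 461, 134, 236 and 36.4 CPM, belong to the same vehicle-treated Het-Met library, and only for Shank2 do all WT points lie above all Het-Met points.

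The interaction of genotype and E2, which asks whether E2 moved a gene differently in Het-Met and WT mice, called 0 members where 0.0729% of all genes were called, and 0 members had an unadjusted limma p-value under 0.05 where 5.42% of all genes did. The largest interaction was that of Shank3, at -0.17 (SE 0.14, limma adjusted p = 1.00), with a 95% interval from -0.47 to 0.14. The interval of Shank1 reached 0.45 and that of Dlgap2 0.46, so that a difference in E2 response of more than 1.3-fold lay within these intervals. Without replicate 1 of vehicle-treated Het-Met mice the interaction of Shank3 was -0.29 (SE 0.10, limma adjusted p = 0.556), the one member then under an unadjusted p-value of 0.05.

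The second question was whether scaffold transcripts differed between the genotypes within a treatment. Here the values of 5 members, the 3 Shank genes with Dlg2 and Dlgap2, were mostly lower in Het-Met libraries, and the other 4 lay near 0. Shank3 was lower mainly under E2, and under vehicle its log2 fold change of -0.07 was near that of Dlgap1, -0.06. No member was called under vehicle, under E2 or over both treatments, where 0.00663%, 0.0265% and 0.0265% of all genes were called. Tests on the recovered reads with edgeR and with DESeq2 also called 0 members in every comparison. Shank2 (chromosome 7, 144001928 to 144424494) was 205 and 205 CPM in vehicle-treated WT and 201 and 201 CPM in E2-treated WT libraries, against 134, 183 and 189.8 CPM in vehicle-treated and 197, 159 and 158 CPM in E2-treated Het-Met libraries. All 6 Het-Met values lay below all 4 WT values, which held for no other member and for 1.72% of all genes. The mean was 203 ± 2.44 CPM (SD, n = 4) in WT and 170.1 ± 23.8 CPM (SD, n = 6) in Het-Met libraries. The log2 fold change was -0.30 under vehicle (SE 0.12, limma unadjusted p = 0.0310, adjusted p = 0.436), -0.24 under E2 (SE 0.12, unadjusted p = 0.0751) and -0.27 over both treatments (SE 0.09, unadjusted p = 0.00836, adjusted p = 0.168).

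Dlgap2 (chromosome 8, 14095865 to 14847680), the lowest member, was 54.9 and 61.5 CPM in vehicle-treated WT, 59.4 and 58.6 CPM in E2-treated WT, 36.4, 52.1 and 53.1 CPM in vehicle-treated Het-Met and 54.95, 47.9 and 45.1 CPM in E2-treated Het-Met libraries. Within each treatment all Het-Met values were below all WT values, and across treatments the ranges met, at 54.9 and 54.95 CPM. The log2 fold change over both treatments was -0.29 (SE 0.09, limma unadjusted p = 0.00833, adjusted p = 0.168).

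Shank1 (chromosome 7, 44310253 to 44360572), the Shank gene most restricted to the brain, was 741 and 663 CPM in vehicle-treated WT, 704 and 728 CPM in E2-treated WT, 461, 649 and 683 CPM in vehicle-treated Het-Met and 724, 558 and 563 CPM in E2-treated Het-Met libraries. It had the widest spread of the members after Dlgap2, and 2 Het-Met libraries, 683 and 724 CPM, lay among the WT values. Over both treatments its log2 fold change was -0.24 (SE 0.10, limma unadjusted p = 0.0301, adjusted p = 0.250).

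Dlg2 (chromosome 7, 90476672 to 92449247), which encodes the close relative of PSD-95 called PSD-93, was 446 and 516 CPM in vehicle-treated WT, 503 and 502 CPM in E2-treated WT, 393, 476 and 410.4 CPM in vehicle-treated Het-Met and 438, 429 and 445 CPM in E2-treated Het-Met libraries. Under E2 all 3 Het-Met values were below both WT values, with a log2 fold change of -0.20 (SE 0.08, limma unadjusted p = 0.0301, adjusted p = 0.384), and over both treatments it was -0.19 (SE 0.06, unadjusted p = 0.00644, adjusted p = 0.158), the smallest p-value of the members. Shank3 was at -0.24 under E2 (SE 0.10, limma unadjusted p = 0.0346, adjusted p = 0.399), and at -0.07 under vehicle (SE 0.10, unadjusted p = 0.510), and the interaction given above was the test of that difference.

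In counts, an unadjusted limma p-value under 0.05 was reached by 2 members under vehicle (Shank2 and Dlgap2), 2 under E2 (Shank3 and Dlg2) and 4 over both treatments (Shank1, Shank2, Dlg2 and Dlgap2), all lower in Het-Met mice. Of all tested genes 4.83%, 5.36% and 7.27% were lower at that limit in the same comparisons. Under vehicle the count was 0 without replicate 3 of vehicle-treated WT or replicate 1 of vehicle-treated Het-Met mice. Under E2 it was 0 without replicate 1 or 2 of E2-treated WT or replicate 2 of E2-treated Het-Met mice. It was 1 without replicate 3 and 4 without replicate 1 of E2-treated Het-Met mice, and 5 without replicate 1 of vehicle-treated Het-Met mice. Values without overlap, lower in Het-Met, were found for 2 members under vehicle (9.89% of all genes) and 5 under E2 (14.7% of all genes), the latter including Dlgap1. Fold changes under 0 were found for 7 of 9 members under vehicle, 9 of 9 under E2 and 8 of 9 over both treatments, where 44.7%, 42.7% and 42.7% of all genes were under 0. The median log2 fold change of the 9 members over both treatments was -0.15, beside 0.02 for all tested genes. It was -0.09 without replicate 1 of vehicle-treated Het-Met mice and -0.08 with a trend with exon length removed. Without that library 6 of 9 members had fold changes under 0 under vehicle (47.7% of all genes), with a median of -0.03 in place of -0.07, and 7 of 9 over both treatments (43.9% of all genes). The counts without overlap were then 2 under vehicle (15.3% of all genes) and 1 over both treatments (1.86%). The 4 genes near 0 over both treatments were Dlg4 at 0.0023, Dlgap3 at -0.0050, Dlg3 at -0.02 and Dlgap1 at -0.07, and their 95% intervals together ran from -0.17 to 0.11. Dlg4 and Dlgap3 change sign between scalings at this size. With the length trend removed Dlg4 stood at 0.09 over both treatments and at 0.15 under vehicle (SE 0.07, limma adjusted p = 0.687).

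Marker lists moved between the genotypes beside the members, and their part in the members' values was not tested. Under E2 the pyramidal neuron markers summed to 7106 to 7767 CPM in Het-Met and 7940 to 7982 CPM in WT libraries, without overlap, although 5 of the 10 genes were higher and 5 lower. Camk2a, with a mean of 4690 CPM over all libraries, was the largest part of this sum and is also among the partner genes described below. Interneuron markers summed to 1033 to 1093 CPM in Het-Met against 1109 to 1124 CPM in WT libraries, with 6 genes lower and 2 higher. Astrocyte markers summed to 5993 to 6397 against 6411 to 6570 CPM, with 4 genes lower and 4 higher. Meningeal markers summed to 295 to 357 against 411 to 424 CPM, with 4 genes lower and 3 higher. These sums were also lower in all Het-Met libraries under E2, as was that of the choroid plexus (12 of 12 genes lower). Thalamic markers (143 to 182 against 140.0 to 143 CPM, 6 of 7 genes higher and 4 at an unadjusted p-value under 0.05) and microglial markers (419.8 to 456 against 402 to 416 CPM, 8 of 8 genes higher and 1 at that limit) were higher in all Het-Met libraries. Under vehicle the sums did not overlap for the choroid plexus (12 of 12 genes higher in Het-Met) and the meninges (357 to 419 against 285 to 309.7 CPM, 6 of 7 genes higher).

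**Figure D3:**
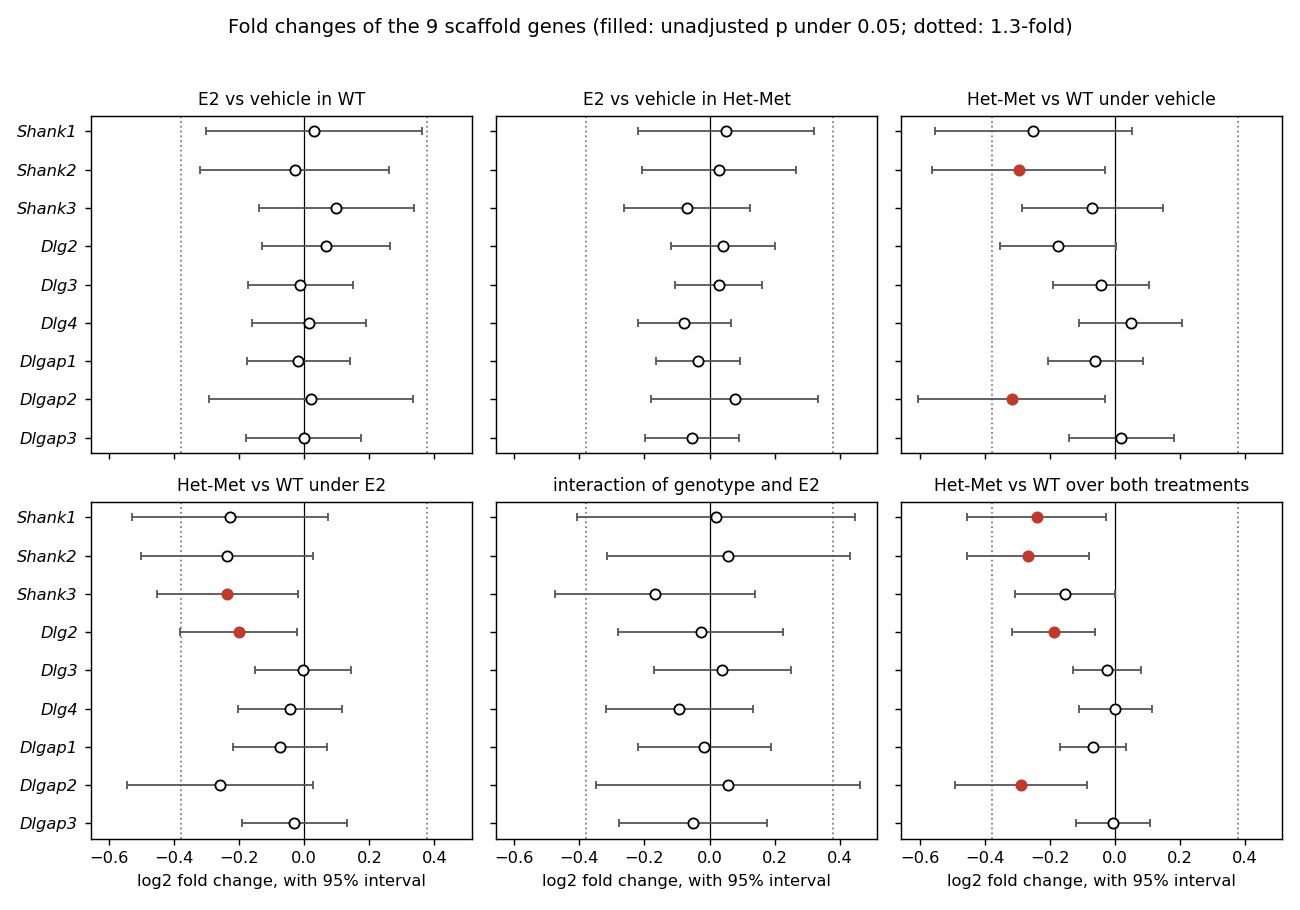
Log2 fold changes of the scaffold genes with 95% intervals in 6 comparisons, filled where the unadjusted limma p-value is under 0.05, with dotted lines at a 1.3-fold change. The E2 panels centre on 0, and in the genotype panels Shank1, Shank2, Dlg2 and Dlgap2 lie to the left while Dlg3, Dlg4, Dlgap1 and Dlgap3 lie near 0. Shank3 lies to the left under E2, but under vehicle it stands at -0.07, near Dlgap1 at -0.06.

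The lower Het-Met values were not spread evenly over the 6 libraries. The mean log2 deviation of the 9 members from their own means was -0.25 in replicate 1 of vehicle-treated Het-Met mice, -0.08 and -0.11 in replicates 2 and 3 of E2-treated Het-Met mice, and between 0.03 and 0.10 in the other 7 libraries, WT and Het-Met alike. Without replicate 1 of vehicle-treated Het-Met mice the log2 fold changes under vehicle were -0.07 for Shank1, -0.14 for Shank2, 0.06 for Shank3, -0.12 for Dlg2 and -0.14 for Dlgap2, and 0 members had an unadjusted p-value under 0.05 (3.40% of all genes lower). Over both treatments they were -0.15, -0.19, -0.09, -0.16 and -0.20 in the same order, and Shank2, Dlg2 and Dlgap2 had an unadjusted p-value under 0.05 (smallest adjusted p = 0.247 by limma). Of all genes 5.98% were lower at that limit. That library is not among the E2-treated ones, so the fold changes under E2 stayed as they were, but the spread shared by all groups became smaller. Under E2 5 members, Shank1, Shank2, Shank3, Dlg2 and Dlgap2, then had an unadjusted p-value under 0.05 (smallest adjusted p = 0.220 by limma) and 0 were called. Of all genes 6.34% were lower at that limit. The same library had the highest choroid plexus markers. With their sum as a covariate the same 4 members, Shank1, Shank2, Dlg2 and Dlgap2, had an unadjusted p-value under 0.05 over both treatments, with a smallest adjusted p of 0.169 by limma. The median log2 fold change of these markers was 1.69 under vehicle and -1.66 under E2 but -0.03 over both treatments. The covariate therefore had little room to change that last comparison. Within treatments 1 member under vehicle, Dlgap2, and 0 under E2 were below that limit with the covariate, in place of 2 and 2.

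Transcript length moved with the library that was lowest. Of the 9 members 6 were among the longest 20% of tested genes, above 7606 bases of exon, and none among the shortest 20%. In replicate 1 of vehicle-treated Het-Met mice the longest 20% of all genes had a median log2 deviation of -0.08 and the shortest 20% had 0.16, whereas in the 4 WT libraries the longest lay between 0.02 and 0.05 and the shortest between -0.09 and -0.02. In the other Het-Met libraries the longest 20% stood at -0.02 and -0.03 in replicates 2 and 3 under vehicle and at 0.01, -0.03 and -0.0088 in replicates 1, 2 and 3 under E2. After a trend with exon length was removed from each library, the log2 fold changes over both treatments were -0.18 for Shank1, -0.21 for Shank2, -0.11 for Shank3, -0.08 for Dlg2 and -0.29 for Dlgap2, while Dlgap1 changed from -0.07 to 0.05 and Dlg4 from 0.0023 to 0.09. With that trend removed Shank2 and Dlgap2 had an unadjusted p-value under 0.05 over both treatments, where 6.46% of all genes were lower at that limit, and 0 members were called. Dlgap2, at 6149 bases not among the longest 20%, stayed at -0.29. Why long transcripts were lower in that library was not tested.

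**Figure D4:**
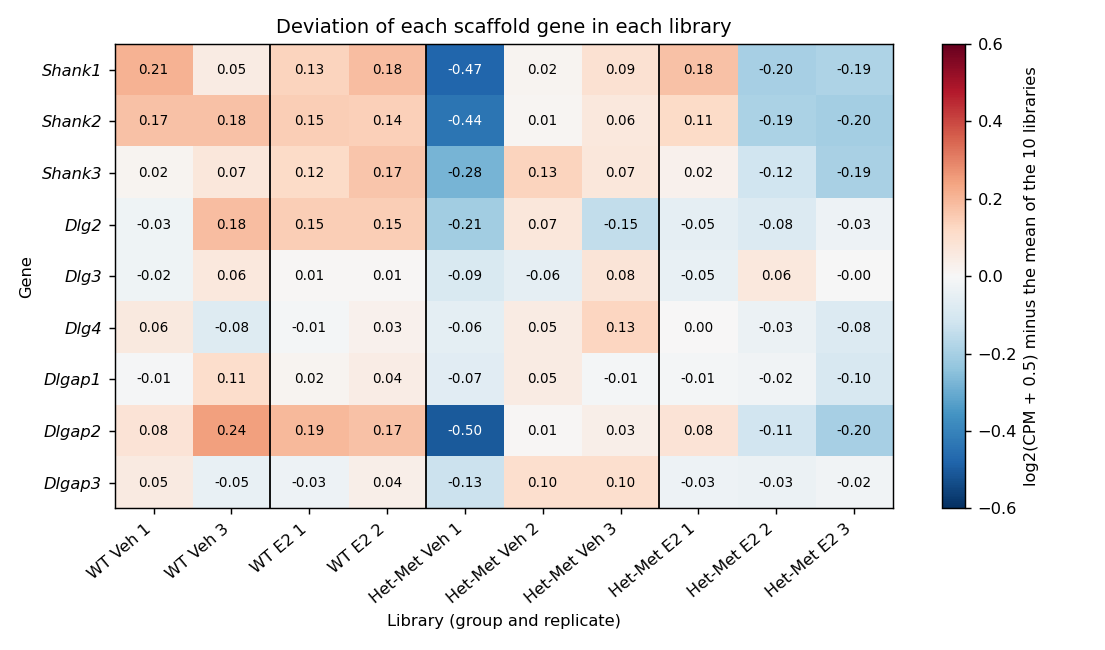
Deviation of each scaffold gene (rows) in each library (columns) from its mean over the 10 libraries, in log2(CPM + 0.5), blue for lower and red for higher. The first vehicle-treated Het-Met library is the bluest column, with -0.50 for Dlgap2 and -0.47 for Shank1, and Dlg3, Dlg4 and Dlgap1 stay pale throughout.

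The genes whose profile over the 10 libraries was most like the members' mean profile were Ddi2 (Pearson r 0.98, Spearman rho 0.89), Ankrd11 (0.98 and 0.89), Setd1b (0.97 and 0.79), Arhgef11 (0.97 and 0.94) and Ago3 (0.97 and 0.84). The genes most unlike it were Wbp5 (r -0.99), Pithd1 (-0.98), Hsbp1 (-0.98), Nudt2 (-0.97) and Cfap36 (-0.97). These are descriptions over n = 10 libraries that share 4 groups, and the genes were picked from all those tested for their likeness. Without the 2 libraries farthest from the median of the profile, replicate 1 of vehicle-treated and replicate 3 of E2-treated Het-Met mice, r was 0.85 to 0.95 for the first 5 genes and -0.95 to -0.89 for the other 5. The first 5 had exon lengths of 7951 to 16580 bases and the other 5 of 845 to 2744 bases. Over the 50 most like genes the median exon length was 11314.5 bases and over the 50 most unlike 2716.5 bases, beside 4435 bases for all tested genes and 10514 bases for the members.

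Promoter sequence was looked at because the members split into a group with lower Het-Met values and a group near 0, and because E2 acts through receptors that bind DNA. Shank3, at -0.15 over both treatments, was placed in the first group, though it stood at -0.07 under vehicle. RefSeq (GRCm38.p6) gave 12 promoter windows, each 250 bases before to 50 bases after a start, for Shank3, Dlg2, Dlg3, Dlg4, Dlgap1 and Dlgap3. Windows of Shank3, from the first group, and of Dlg4 and Dlgap1, from the second, are shown 5′ to 3′ on the + strand, with capitals for matches on either strand to AGGTCA (one arm of an estrogen response element), TGACG (one arm of a cAMP response element), GGGCGG (SP1) or GCGTGGGCG (EGR). The Shank3 window is chr15:89499358-89499657, the Dlg4 window chr11:70016953-70017252 and the Dlgap1 window chr17:69968823-69969122.
Shank3: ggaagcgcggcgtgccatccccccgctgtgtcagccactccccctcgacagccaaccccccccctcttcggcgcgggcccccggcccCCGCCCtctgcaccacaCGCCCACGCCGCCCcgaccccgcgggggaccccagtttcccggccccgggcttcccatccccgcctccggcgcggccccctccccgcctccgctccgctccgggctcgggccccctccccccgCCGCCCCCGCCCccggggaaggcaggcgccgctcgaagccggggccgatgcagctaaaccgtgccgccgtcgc
Dlg4: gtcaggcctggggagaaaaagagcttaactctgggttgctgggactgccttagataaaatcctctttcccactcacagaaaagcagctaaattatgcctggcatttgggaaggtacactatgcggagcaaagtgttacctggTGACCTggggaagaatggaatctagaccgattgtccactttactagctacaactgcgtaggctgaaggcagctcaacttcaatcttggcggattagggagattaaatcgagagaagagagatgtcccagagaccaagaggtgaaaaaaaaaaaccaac
Dlgap1: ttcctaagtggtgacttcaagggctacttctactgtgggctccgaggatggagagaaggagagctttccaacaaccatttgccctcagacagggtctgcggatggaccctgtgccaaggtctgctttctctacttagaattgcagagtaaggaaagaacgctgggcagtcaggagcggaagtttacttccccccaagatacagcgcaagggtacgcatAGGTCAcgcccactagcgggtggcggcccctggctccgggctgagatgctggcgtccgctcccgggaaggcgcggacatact
The Shank3 window was 81.0% G and C with 40 CG dinucleotides, beside medians of 52.7% and 7 over 32851 promoters, and held GGGCGG at 4 places and GCGTGGGCG once, overlapping one of them. The Dlg4 and Dlgap1 windows shown each held AGGTCA once. The windows of Dlg2, also from the first group, held 3, 1 and 2 CG dinucleotides and none of these matches. The Dlg4 windows not shown held 12 and 16 CG dinucleotides, the latter with GGGCGG at 2 places and TGACG once. Among the windows at hand AGGTCA and TGACG were only in the second group, GCGTGGGCG only in that of Shank3, and GGGCGG in both groups. No window was given for Shank1, Shank2 and Dlgap2 of the first group, so the groups could not be compared by their windows. Over all windows of the members AGGTCA was in 3 of 12 (16.3% of all promoters), TGACG in 2 of 12 (20.8%), GGGCGG in 3 of 12 (35.7%) and GCGTGGGCG in 1 of 12 (0.612%), while the full estrogen response element, GGTCA and TGACC with 3 bases between them (0.0700% of all promoters), and the full cAMP response element TGACGTCA (1.79%) were in none. These are matches of letters and not binding sites.

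The 42 partner genes, a list of other postsynaptic density proteins that bind or act beside the scaffolds, were described by the same counts, and all 42 were tested. None was called in any comparison. With E2, an unadjusted limma p-value under 0.05 was reached by 1 of 42 in WT and by 5 of 42 in Het-Met mice, all higher, as 2.37% and 2.82% of all genes were. Nos1, the neuronal nitric oxide synthase held at synapses by Dlg4, was 183 and 178 CPM in vehicle-treated and 219 and 214 CPM in E2-treated WT libraries. Both E2 values were above both vehicle values, and the log2 fold change was 0.26 (SE 0.10, limma unadjusted p = 0.0207, adjusted p = 1.00). The next in WT were Pick1 at -0.18 and Frmpd4 at 0.13, with unadjusted limma p-values of 0.0960 and 0.169. Their libraries did not overlap, as those of 15.6% of all genes (higher) and 16.2% (lower) did not. Without replicate 1 or replicate 3 of vehicle-treated WT mice Pick1 was -0.10 or -0.27 and Frmpd4 0.02 or 0.23. Cacng3, an auxiliary subunit of AMPA receptors, was 81.1, 80.4 and 85.4 CPM in vehicle-treated and 97.9, 95.1 and 104 CPM in E2-treated Het-Met libraries. These did not overlap, and the log2 fold change was 0.26 (SE 0.07, limma unadjusted p = 0.00269, adjusted p = 0.710), followed by Magi3 at 0.15 and Dlg1, another Dlg scaffold, at 0.13. In the interaction Cacng3 stood at 0.35 (SE 0.12, limma adjusted p = 0.557), ahead of Magi1 at 0.25 and Magi3 at 0.20.

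Between the genotypes 8 of 42 partners were lower and 1 higher under vehicle, 8 lower and 2 higher under E2, and 14 lower and 1 higher over both treatments, at an unadjusted limma p-value under 0.05. Of all genes 4.83%, 5.36% and 7.27% were lower and 5.85%, 6.29% and 9.33% higher at that limit. Over both treatments 30 of 42 had fold changes under 0, as 42.7% of all genes did, and the median log2 fold change was -0.08. With a trend with exon length removed, 3, 4 and 5 partners were lower and 0, 0 and 1 higher at that limit in the same comparisons. Of all genes 4.05%, 5.88% and 6.46% were then lower. The partners' median over both treatments was -0.04 in that setting, with 31 of 42 under 0 (50.6% of all genes). Without replicate 1 of vehicle-treated Het-Met mice 5 were lower and 0 higher under vehicle, 10 lower and 2 higher under E2, and 10 lower and 1 higher over both treatments, where 29 of 42 were under 0 and the median was -0.05. Of all genes 3.40%, 6.34% and 5.98% were then lower and 3.45%, 7.65% and 6.95% higher, and 43.9% were under 0 over both treatments. Lrrc7, the postsynaptic protein densin, was the one partner among the 3 smallest p-values in both treatments. It was 103 and 112 CPM in vehicle-treated WT and 108 and 103 CPM in E2-treated WT libraries, against 78.4, 96.8 and 86.2 CPM in vehicle-treated and 97.4, 86.3 and 81.7 CPM in E2-treated Het-Met libraries. All 6 Het-Met values were below all 4 WT values, which held for 3 of 42 partners, Tnik among them, and for 1.72% of all genes. The log2 fold changes of Lrrc7 were -0.31 under vehicle (SE 0.09, limma adjusted p = 0.336) and -0.25 under E2 (SE 0.09, adjusted p = 0.360). Without replicate 1 of vehicle-treated Het-Met mice the value under vehicle was -0.23 (limma adjusted p = 0.698). The others with the smallest p-values were Magi1 at -0.25 and the kinase Tnik at -0.22 under vehicle, and Frmpd4 at -0.27 and Sipa1l1, a Rap GTPase-activating protein, at -0.24 under E2. Replicate 1 of vehicle-treated Het-Met mice was the lowest library for 16 of 42 partners and for 14.1% of all tested genes.

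**Figure D5:**
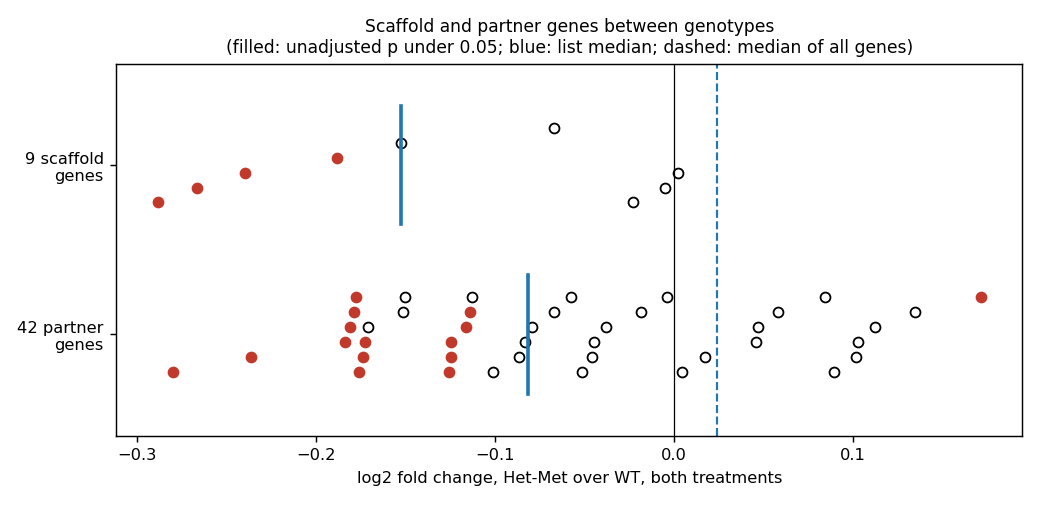
Log2 fold change of Het-Met over WT, averaged over both treatments, for the 9 scaffold genes and the 42 partner genes (1 point each, stacked for visibility), filled where the unadjusted limma p-value is under 0.05. Blue bars mark the medians, -0.15 and -0.08, and the dashed line marks the median of all tested genes, 0.02.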

How the data were processed

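RNA-seq of the vHpc was analysed in 10 libraries of 4 groups. The authors trimmed, filtered and ran TopHat2 on 75-bp single-end reads against mm10, took counts per gene and deposited CPM, which sum to 1000000 per library. Every CPM value was a whole multiple of 1 read (tolerance 0.01), which gave depths of 19820184 to 23267410 reads, and intervals from counts cover counting error only. A gene listed at 0 is limited to 3 reads, 0.129 to 0.151 CPM.

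The 15081 genes that averaged 0.5 CPM or more were tested as log2(CPM + 0.5) in limma 3.58.1 (R 4.3.3), with 1 mean per group over all 10 libraries, intensity trend and two-sided moderated tests (residual degrees of freedom 6, prior 8.90). The scale understates fold changes of low genes. A call meant an adjusted p-value (Benjamini-Hochberg) below 0.05 together with a change of more than 1.3-fold. The 7 comparisons were E2 in each genotype, genotype under each treatment, the interaction and both averages. Replicates are pools of 2 animals, and replicate pairs differed beyond sampling noise (chi-square per degree of freedom 3.40 to 14.1). Same-numbered libraries did not deviate together (r -0.172 to 0.0826), so the numbers were not used as pairs.

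Lengths came from GENCODE vM21, in which 23376 symbols were found as such and 678 under an older name, leaving 367 unmatched, and GC content from its longest protein-coding transcripts. Promoters came from RefSeq (GRCm38.p6). The 9 members, the partner and marker lists and the tests were chosen with earlier results of these data known. All members were named, and of the partners the 3 with the smallest p-values in each pairwise comparison and the interaction. The alternatives were other thresholds, pseudocounts (0.1, 1), filters and scalings, a replicate block, only the libraries compared, edgeR 4.0.16 and DESeq2 1.42.0 on recovered reads, removal of length or GC trends, a choroid plexus covariate and each library left out. The script was tested on simulated data. Markers of dentate granule cells, ventral hippocampus, oligodendrocytes and endothelium, whose sums overlapped between the genotypes under both treatments, summed to 246 to 401, 256 to 379.5, 3953 to 5035 and 208 to 258 CPM.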

Additional observations from a re-analysis of the deposited data

Results flagged for a closer look

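The E2 libraries of 2 partner genes lay on opposite sides of the vehicle libraries in the 2 genotypes, without overlap in either. Magi3 was 78.9 and 79.0 CPM in vehicle-treated and 77.1 and 76.4 CPM in E2-treated WT libraries, against 69.5, 74.9 and 68.3 CPM in vehicle-treated and 80.4, 78.2 and 78.0 CPM in E2-treated Het-Met libraries. The limma interaction of Magi3 was 0.20 (SE 0.10, unadjusted p = 0.0624, adjusted p = 0.939). Magi1 was 99.2 and 97.5 CPM in vehicle-treated and 93.6 and 88.7 CPM in E2-treated WT libraries, against 86.0, 78.0 and 84.0 CPM in vehicle-treated and 92.8, 92.4 and 87.9 CPM in E2-treated Het-Met libraries. The limma interaction of Magi1 was 0.25 (SE 0.10, unadjusted p = 0.0235, adjusted p = 0.777). Neither passed the threshold, and both were among 42 partner genes looked at and had already been named above for small p-values. Without overlap, 16.2% of all genes were lower with E2 in WT and 5.15% higher in Het-Met libraries. The share of all genes with both was not counted.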

How the results depend on the processing

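No member was called in any of the 7 comparisons under any setting run. The number of members with an unadjusted p-value under 0.05 over both treatments was 4 as reported and 2 to 5 otherwise, and the smallest adjusted p-value of a member there ranged from 0.0533 (DESeq2 on recovered reads) to 0.427 (without E2-treated WT replicate 2). Under vehicle that number fell from 2 to 0 without vehicle-treated WT replicate 3, without vehicle-treated Het-Met replicate 1 and with no filter on low values. Under E2 it ranged from 0, among others with the choroid plexus covariate, to 5, among others without vehicle-treated Het-Met replicate 1. With the replicate block it was 5 over both treatments and 1 under E2, and the block called 0 members, although the numbers do not pair the libraries. The fit of only the libraries compared gives no value for the interaction and the averages.

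Of 38 single-gene log2 fold changes followed through the settings, which leave out other fold changes printed above, 5 changed sign in some setting. Of those left out, Shank3 under vehicle turned from -0.07 to 0.06 without vehicle-treated Het-Met replicate 1. Dlg4 between genotypes over both treatments was 0.0023 as reported, but -0.0208 with median-of-ratios scaling, -0.0210 with TMM scaling, -0.0237 with quantile normalization, -0.0149 with edgeR, -0.0199 with DESeq2 and -0.0027 with the GC trend removed. It was 0.0866 with the length trend removed, and -0.0320 to 0.0366 with a library left out. Dlgap3 turned from -0.0050 to 0.0213 with quantile normalization and 0.0028 with the choroid plexus covariate, and ranged from -0.0300 to 0.0330 with a library left out. Dlgap1 turned from -0.07 to 0.0483 with the length trend removed. With E2 in Het-Met mice, Shank3 was -0.07 and ranged from -0.20 to 0.0109 with a library left out, turning without vehicle-treated Het-Met replicate 2, and Dlgap2 was 0.08 and ranged from -0.0973 to 0.17, turning without replicate 1 of either Het-Met group. The cause was not tested.

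Levels per kilobase moved with the length used, which holds fewer bases for the longest transcript than for all exons: per longest transcript, protein-coding or not, they were 159 for Dlg4, 100.3 for Dlgap1, 76.97 for Dlgap3, 58.3 for Dlg2, 39.1 for Shank3, 20.4 for Shank2 and 11.6 for Dlgap2, and for Dlg3 52.9 (any transcript) or 53.5 (protein-coding). The protein-coding length was added after seeing the data.

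Groups of 2 or 3 pooled libraries and prior degrees of freedom shared over genes set the precision, since each member had 768 reads or more in each library.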
